A study of Drosophila melanogaster with 2 samples.

Results

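Phototransduction genes of Drosophila melanogaster were examined in a comparison of larvae that expressed a GFP-tagged SR splicing protein with larvae that expressed GFP alone. The genes were 10 in number: Gbeta76C, Ggamma30A, Galphaq, rdgA, rdgB, norpA, trp, ninaC, inaD and Arr2. They were found through probes whose annotation gives a single gene symbol, with old symbols and CG numbers brought to current ones. In this way 8 of the 10 genes had a probe, out of 11865 genes with such a probe in all, and these 8 genes held 11 probes. No probe carried the name of norpA or ninaC.

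The larvae came from 2 crosses. In the first, GMR was crossed to GFP-dASF/SF2, and in the control GMR was crossed to GFP-NLS, GFP with a nuclear localisation signal, so that both carry GMR and a GFP transgene. dASF/SF2 is an SR protein, and the study asked whether raising it alters gene expression broadly. GMR drives expression in the eye disc, in cells behind the morphogenetic furrow, a small share of the cells of a larva. Whether other cells of these larvae also expressed the transgenes is not given in the labels. The labels give neither age, sex, tissue nor the number of larvae, and they do not say whether the arrays held separate RNA extracts. PolyA RNA of the crosses was hybridised together on 2 arrays in a dye swap: the dASF/SF2 RNA carried Cy5 on array 1 and Cy3 on array 2.

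The deposited value of a probe is 1 log ratio per array. Neither its log base nor the channel on top is given in the sources used here. Values were read as Cy5 over Cy3, so the sign of array 2 was turned, and the array medians were then set to 0. If Cy5 is indeed on top, positive values mean more RNA in dASF/SF2 larvae than in GFP-NLS larvae; if Cy3 is, they mean less. Signs are therefore reported as the positive and the negative side. Means are over both arrays ± SD (n = 2), and tests are limma's against 0 over 10912 probes. The p-values rest on how far the 2 arrays differ, and that difference may be purely technical. Because limma pools this spread over all probes (4.35 prior degrees of freedom), the difference at a probe itself sets only part of its p-value and interval. The table holds no intensities, so the level of a gene, and whether its signal stood above background, cannot be read from it. In RNA of many cells, fewer cells of a type and less RNA per cell cannot be told apart.

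Fly photoreceptors turn light into an electrical signal through a Gq cascade. Rhodopsin activates a heterotrimeric G protein, whose alpha subunit switches on the phospholipase C that norpA encodes; this enzyme splits a membrane phosphoinositide, and the TRP and TRPL cation channels open. Diacylglycerol kinase and a phosphatidylinositol transfer protein then rebuild the lipid, and arrestin silences rhodopsin. In the larva the pathway works in Bolwig's organ, a small group of photoreceptors in the head, while photoreceptors of the compound eye are still being specified in the eye disc and switch on most of these genes later, in the pupa.

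Of the 8 genes with a probe, 4 were measured on both arrays: Gbeta76C, Ggamma30A, Galphaq and rdgA. The limma test called 0 of their 6 probes at an adjusted p under 0.05, as it did for all probes (0 of 10912, 0%). Gbeta76C and Galphaq, which encode the beta and alpha subunits of the eye G protein, lay on the positive side of both arrays, and Ggamma30A, its gamma subunit, lay on the negative side of both. The diacylglycerol kinase gene rdgA had 3 probes that did not give the same value. A further 4 probes, of Galphaq, rdgB, trp and inaD, had a value on array 2 alone, and all 4 lay within 0.09 of that array's median. The Arr2 probe had no value on either array.

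**Figure D1:**
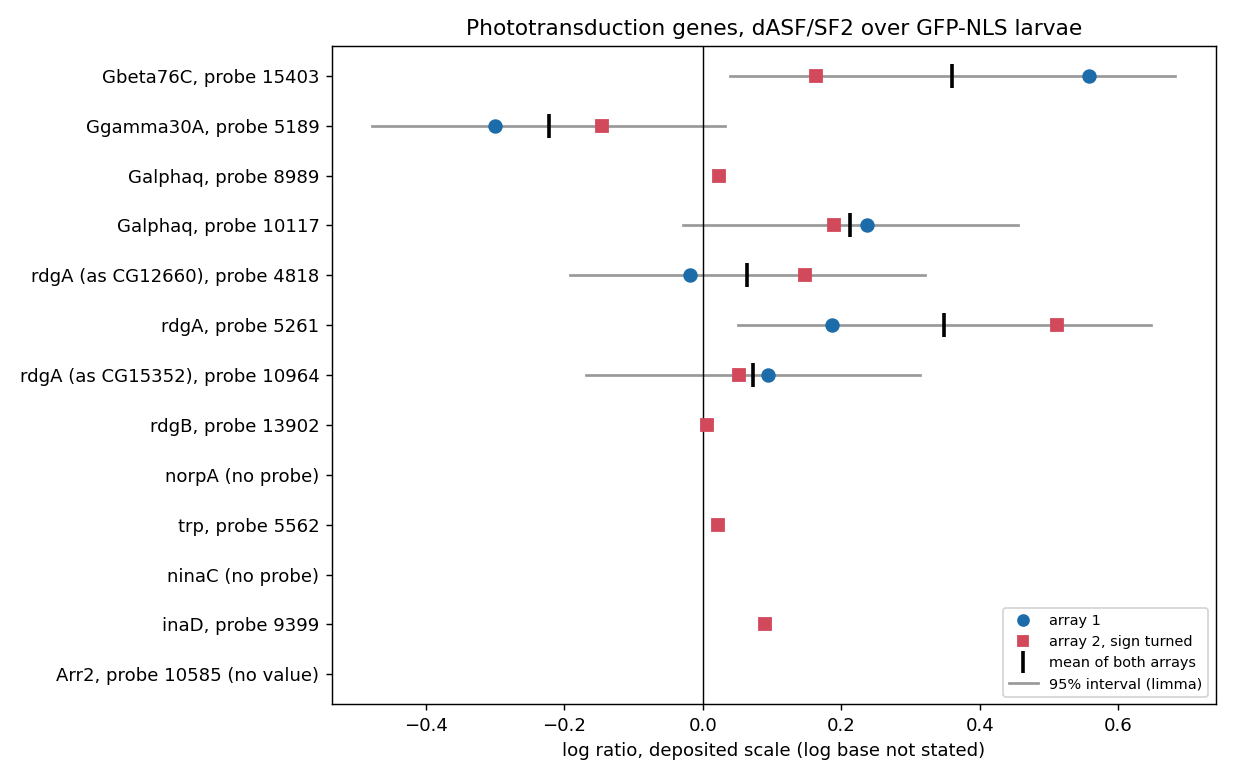
Log ratios of every probe of the phototransduction genes (horizontal axis, deposited scale, log base not stated) on array 1 (circles) and on array 2 with the sign turned (squares), with the mean of both arrays (tick) and limma's 95% interval (grey line). Gbeta76C reached 0.557 on array 1 and the probe annotated as rdgA 0.512 on array 2, while the 4 probes with array 2 alone sit between 0.006 and 0.09.

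Gbeta76C (CG8770) encodes the G protein beta subunit of photoreceptors. Its single probe was deposited at 0.559 on array 1 and -0.154 on array 2. After centring and turning, these became 0.557 and 0.164, both on the positive side, with array 1 far above array 2. The mean was 0.361 ± 0.278 (SD, n = 2), with a 95% interval of 0.0388 to 0.682. That is 1.28-fold if the scale is base 2 and 2.29-fold if it is base 10. By limma the unadjusted p was 0.0342 and the adjusted p 0.658. On array 1, 4.27% of all probes lay at least as far from the median, and on array 2 this was 30.6%, so the value stood out on array 1 and not on array 2.

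Ggamma30A (CG3694) encodes the gamma subunit that pairs with Gbeta76C and anchors the dimer to the membrane. It was deposited at -0.298 on array 1 and 0.155 on array 2. Turned and centred, both arrays lay on the negative side, at -0.30 and -0.145. At least as far from the median lay 17.4% of all probes on array 1 and 35.8% on array 2. The mean was -0.223 ± 0.110 (SD, n = 2), with a 95% interval of -0.477 to 0.0319 and an adjusted p of 0.798 by limma. The beta and gamma subunits work as a dimer, and their probes lay on opposite sides of the median on each array. Gbeta76C minus Ggamma30A came to 0.857 on array 1 and 0.309 on array 2; this difference was not tested.

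Galphaq (CG17759) encodes the alpha subunit that activates phospholipase C, and it also acts in neurons outside the eye. It had 2 probes. The first was deposited at 0.239 on array 1 and -0.179 on array 2, which after centring and turning gave 0.237 and 0.189. These arrays differed little, with a mean of 0.213 ± 0.0339 (SD, n = 2), a 95% interval of -0.0284 to 0.454 and an adjusted p of 0.797 by limma. The other Galphaq probe was blank on array 1, and its array 2 value was -0.014 as deposited and 0.024 once turned and centred. On array 2, where both probes can be set side by side, the first thus lay to the positive side and the second near the median. At least as far from that median as the first lay 24.5% of all probes, and 87.3% as far as the second. On array 1 the share for the first probe was 25.1%, so it stood out on neither array.

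rdgA encodes the diacylglycerol kinase of the photoreceptor and takes its name from retinal degeneration in its mutants. The current gene (CG42667) joins older gene models, and 3 probes fell to it: 1 annotated as rdgA, 1 as CG12660 and 1 as CG15352. The first was deposited at 0.188 on array 1 and -0.502 on array 2, which became 0.186 and 0.512. Its mean was 0.349 ± 0.231 (SD, n = 2), with a 95% interval of 0.0504 to 0.648. By limma the unadjusted p was 0.0295 and the adjusted p 0.63. Only 1.64% of probes lay as far out on array 2, against 34.6% on array 1. Before any correction for position, this probe thus stood out on the array opposite to that of Gbeta76C. Its block of the probe order had medians of -0.097 on array 1 and 0.101 on array 2. Part of the contrast between its arrays is therefore shared with its block.

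The other rdgA probes lay close to the median. The probe annotated as CG15352 was deposited at 0.096 on array 1 and -0.042 on array 2, with a mean of 0.073 ± 0.0297 after turning. The probe annotated as CG12660 was deposited at -0.016 and -0.137, which put its arrays on opposite sides, at -0.018 and 0.147, with a mean of 0.0645 ± 0.117. Both had an adjusted p of 0.999 by limma. The highest and the lowest of the 3 probe means were 0.285 apart. Among 76 genes with 3 probes on both arrays the median of this range was 0.195, and 28.9% of them had a range at least as wide as that of rdgA. Averaged over its 3 probes rdgA had a mean of 0.162 ± 0.106 (SD, n = 2), with an adjusted p of 0.924 by limma at gene level. Which transcripts each probe detects is not given in the sources used here, so the probes cannot be assigned to isoforms.

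**Figure D2:**
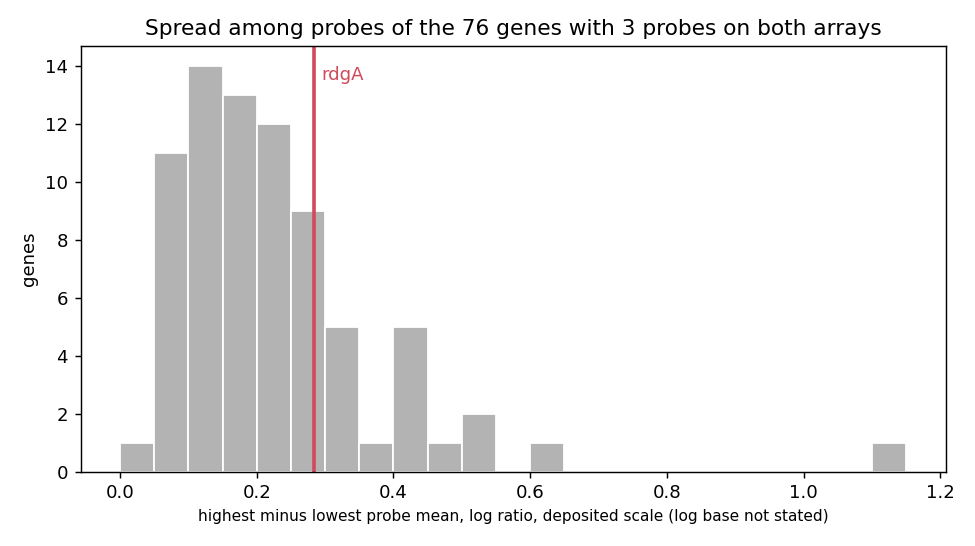
Distribution over the 76 genes with 3 probes on both arrays (vertical axis, number of genes) of the distance between the highest and the lowest probe mean (horizontal axis, deposited log scale). The line marks rdgA at 0.285, inside the body of the distribution, whose median is 0.195.

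The channel, lipid transfer and scaffold genes trp, rdgB and inaD had a value on array 2 alone. trp (CG7875), the founding member of the TRP channel family and the main light-activated channel, was deposited at -0.012. rdgB (CG11111), the phosphatidylinositol transfer protein, was deposited at 0.004, and inaD (CG3504), the PDZ scaffold that holds channel, phospholipase and kinase together, at -0.08. Turned and centred, they stood at 0.022, 0.006 and 0.09. Of all probes on array 2, 88.3% lay at least as far from the median as trp, 97.1% as far as rdgB and 55.8% as far as inaD. For comparison, the median distance from 0 was 0.137 over the 2582 probes with array 2 alone and 0.097 over the 10912 probes with both. These values come from a single orientation of the dyes and have no replicate, so no test was made. The arrestin gene Arr2 (CG5962), whose product binds activated rhodopsin, was blank on both.

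Many cells of these genes were blank. Array 1 lacked a value for 5 of the 11 probes, or 45.5%, against 25.2% of all 13147 probes with a single symbol. Array 2 lacked 1 of the 11 (9.09%), against 8.22% of all. Over 31 probes of further phototransduction genes, array 1 lacked 18 (58.1%) and array 2 lacked 9 (29.0%). The filter behind blank cells is not given in the sources used here, and these shares were not tested.

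The 6 probes measured on both arrays can be read against all probes. Across all 10912 probes the turned arrays hardly correlated (Pearson r = 0.024), and 49.15% of probes had the same sign on both. Sharing a side on both arrays was thus no more frequent than lying on opposite sides. On the positive side of both arrays lay 4 of the 6, against 26.1% of all probes. On the negative side of both lay 1, against 23.1%, and the remaining probe had opposite sides, against 50.9%. At an unadjusted p under 0.05 limma found 2 of the 6, both positive, where 4.76% of all probes passed on that side and 1.93% on the other (6.69% on either). These 2 were the Gbeta76C probe and the probe annotated as rdgA. The median of the 6 means was 0.143, and that of all probes was 0.0045. Since 3 of the 6 probes belong to rdgA, they are not independent, and over the 4 genes the median was 0.188. The genes were chosen with earlier results of these data known, so no test was made over them as a list.

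**Figure D3:**
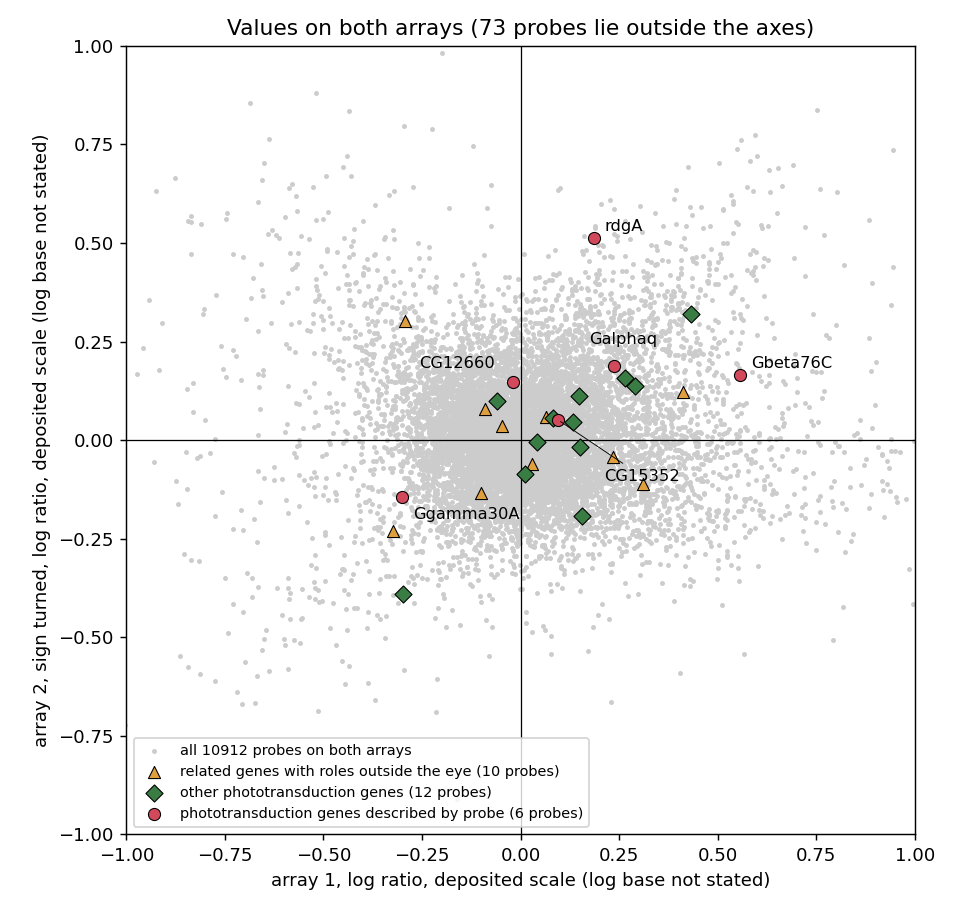
Array 1 (horizontal axis) against array 2 with the sign turned (vertical axis), both as deposited log ratios after centring, for all 10912 probes on both arrays (grey; 73 lie outside the axes), the 6 probes of the phototransduction genes described here (circles), 12 of other phototransduction genes (diamonds) and 10 of related genes with roles outside the eye (triangles). The circles of Gbeta76C and of the probe annotated as rdgA lie away from the dense middle of the grey cloud, each farther out on a different array. The other rdgA circles lie in that middle, and Ggamma30A lies in the part of the plane where both arrays are negative.

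The sides depend on how the deposited values run. If they already run by genotype, so that array 2 needs no turning, the arrays of Gbeta76C, Ggamma30A, Galphaq and the probe annotated as rdgA disagree in sign. Under that reading Gbeta76C had a mean of 0.197 ± 0.51 (SD, n = 2), the probe annotated as rdgA -0.163 ± 0.494, Ggamma30A -0.0775 ± 0.315 and Galphaq 0.024 ± 0.301. None of the 6 probes was on the positive side of both arrays, against 23.9% of all probes, and 1 was on the negative side of both, against 26.4%. That probe was the rdgA probe annotated as CG12660, at -0.0825 ± 0.0912. The limma test called 0 of all probes under this reading too (0%), and 0 of the 6 passed at an unadjusted p under 0.05, against 4.88% of all.

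**Figure D4:**
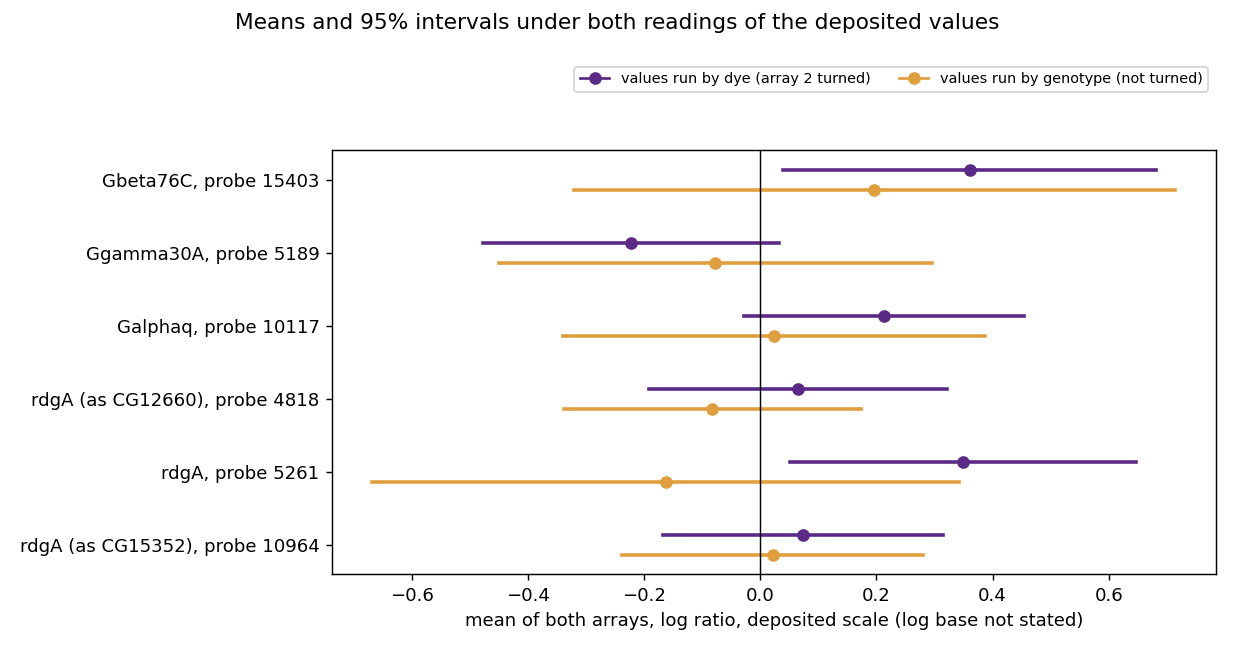
Means of both arrays (points) with limma's 95% intervals (lines) for the 6 probes measured on both arrays, with array 2 turned (upper line of each pair) and with the values taken as already running by genotype (lower line); the horizontal axis is the deposited log scale. With array 2 turned, the intervals of Gbeta76C and of the probe annotated as rdgA start at 0.0388 and 0.0504; by genotype, every interval holds 0.

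Further genes of the pathway were taken from a list of 35, of which 26 had a probe and 12 were measured on both arrays, each by 1 probe. The limma test called 0 of these 12, as for all probes (0%). On the positive side of both arrays lay 6 of the 12 (26.1% of all probes), on the negative side of both 1 (23.1%), and the median was 0.0688 against 0.0045 over all probes. At an unadjusted p under 0.05 limma found 1 on each side, where 4.76% of all probes passed on the positive and 1.93% on the negative side.

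Opsins, the light-sensing receptors, gave little data. ninaE, Rh2, Rh3, Rh4, Rh5 and Rh6 had no probe with a single symbol, and Rh7, an opsin of central clock neurons, was seen on array 2 alone at -0.294 after turning. Of genes that make or shut off rhodopsin, the protein phosphatase gene rdgC, which removes phosphate from rhodopsin, gave 0.265 on array 1 and 0.157 on array 2, a mean of 0.211 with an adjusted p of 0.813 by limma. That probe was annotated with the older name CG13814, and a second rdgC probe was blank. santa-maria, a scavenger receptor needed to take up carotenoids for the chromophore, had arrays on opposite sides, at 0.156 and -0.193. Arr1, the less abundant visual arrestin, was at 0.155 on array 2 alone. The receptor kinase gene Gprk1 gave 0.083 on array 1 and 0.057 on array 2. ninaB, which cleaves carotenoids to make the chromophore, had array 1 alone, at -0.06, and ninaG, an oxidoreductase of chromophore synthesis, array 2 alone, at -0.208.

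The lipid cycle around rdgA and rdgB was the best covered step, with all 6 listed genes measured on both arrays. PIP5K59B, a phosphoinositide kinase that belongs to the resynthesis step, was lowest, at -0.297 on array 1 and -0.39 on array 2, a mean of -0.344 with an adjusted p of 0.54 by limma. A second PIP5K59B probe had array 2 alone and lay on the other side there, at 0.301. Cds, which makes CDP-diacylglycerol from the phosphatidic acid that RdgA supplies, had a mean of 0.089, and Pis, the next enzyme, 0.0195. The diacylglycerol lipase gene inaE had 0.0185 and the lipid phosphate phosphatase gene laza, which works against RdgA, 0.0675. stops, which keeps the NorpA protein stable, had 0.131. All 6 lay nearer to the median than the probe annotated as rdgA, PIP5K59B by little.

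Among channel, scaffold and calcium genes only inaC, the eye protein kinase C bound by InaD, was measured on both arrays, at 0.291 and 0.136. Its mean was 0.214, with an adjusted p of 0.827 by limma. On array 2 alone, the sodium-calcium exchanger gene Calx stood at -0.57, the second light-activated channel gene trpl at -0.178, inaF-D at 0.114 and rtp at -0.047. The probes of Pkc53E, a related protein kinase C gene, lay on opposite sides of array 2, at 0.49 and -0.13. Of the genes that handle histamine, the photoreceptor transmitter, e (ebony) gave 0.432 and 0.319, a mean of 0.376 and an adjusted p of 0.483 by limma. ebony also acts in cuticle tanning. t (tan), which reverses the ebony reaction, had 0.011 on array 1 and -0.085 on array 2, and Hdc, ort and CarT were blank on both arrays.

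**Figure D5:**
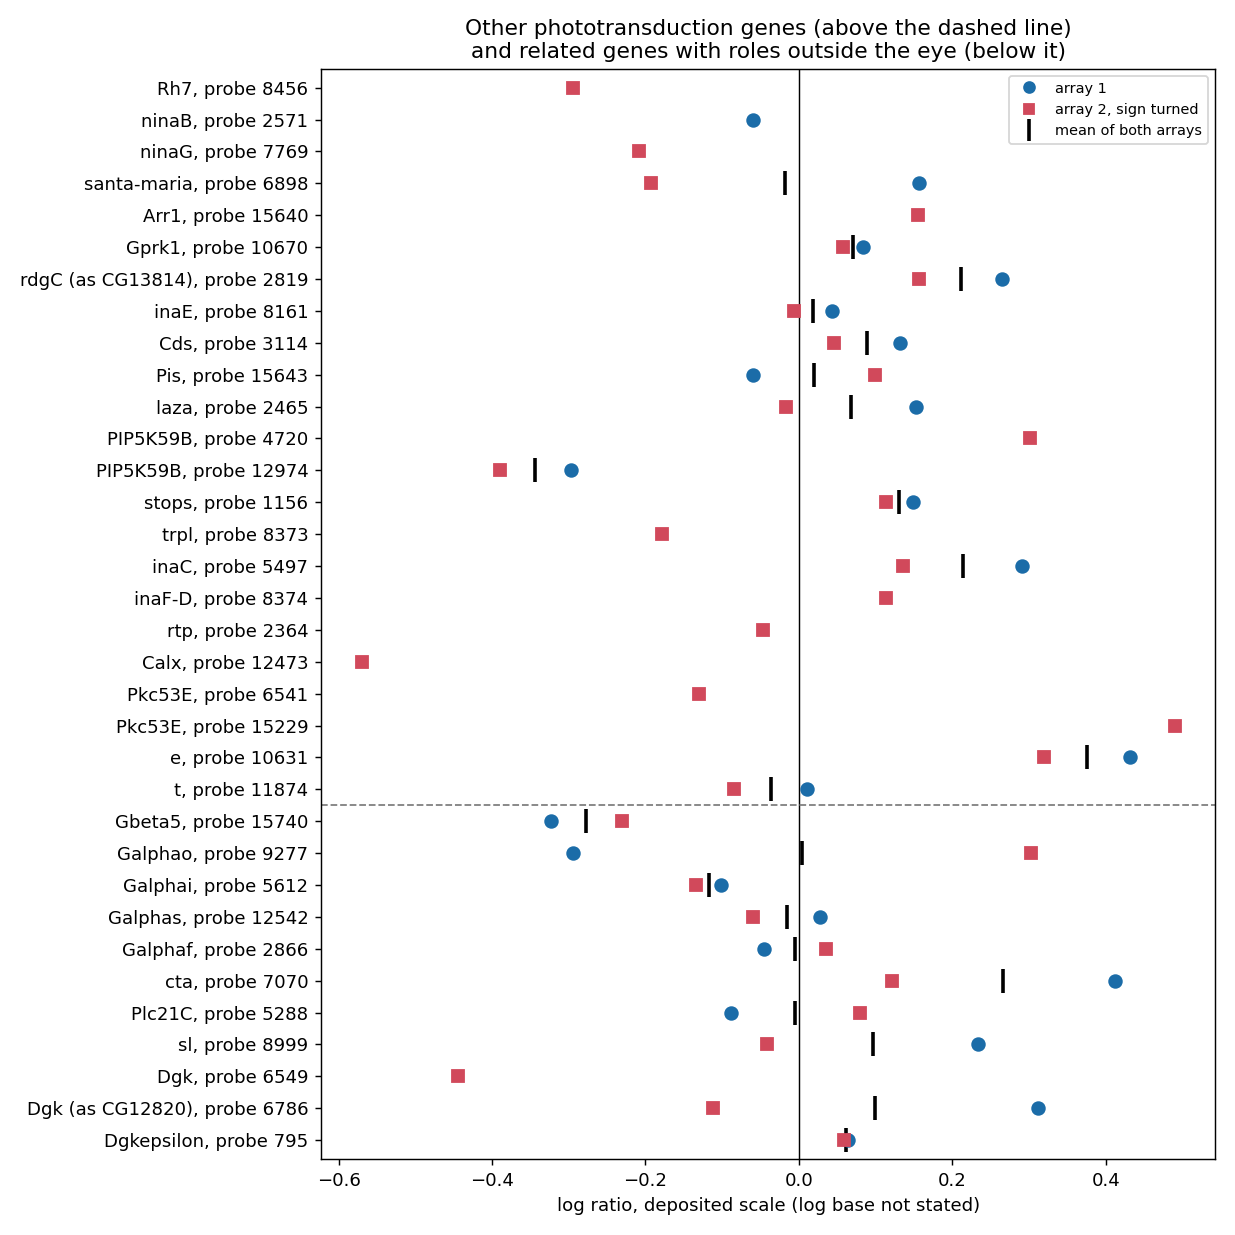
Log ratios (horizontal axis, deposited scale) of every measured probe of the other phototransduction genes (above the dashed line) and of related genes with roles outside the eye (below it), on array 1 (circles), array 2 turned (squares) and as the mean of both (tick). ebony (e) has the highest mean, 0.376, and PIP5K59B the lowest, -0.344; many genes have array 2 alone.

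Relatives of the G protein, phospholipase C and diacylglycerol kinase genes that work outside the eye give a setting for these values. Of 12 listed, 10 were measured on both arrays, with 0 called by limma (0% of all probes). Among these 10, 2 lay on the positive side of both arrays (26.1% of all probes) and 2 on the negative side of both (23.1%). The other 6 lay on opposite sides (50.9%). Their median was 0. Gbeta5, the beta subunit that pairs with a regulator of G protein signalling, was lowest, at -0.323 and -0.231 (mean -0.277, adjusted p = 0.655 by limma). It thus lay on the side opposite to Gbeta76C on both arrays. The alpha subunit gene cta was highest, at 0.412 and 0.121, with a mean of 0.267. Galphao, abundant in neurons, had arrays far apart on opposite sides, at -0.294 and 0.303. The alpha subunit genes Galphai, Galphas and Galphaf had means of -0.118, -0.016 and -0.0055. The phospholipase C gamma gene sl had a mean of 0.096. The phospholipase C gene Plc21C had a mean of -0.0045, and the kinase gene Dgkepsilon had 0.0615. For the kinase gene Dgk, the probe annotated as CG12820 had 0.0995, and a second probe had array 2 alone, at -0.444. Gbeta13F and Ggamma1, the broadly used beta and gamma subunits, had no probe with a single symbol.

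Markers of other tissues were read the same way. With array 2 turned, 12 of 14 muscle probes lay on the positive side of both arrays (median 0.325, range -0.0905 to 0.658), and 10 of 14 midgut enzyme probes on the negative side of both (median -0.53, range -0.864 to 0.339). Neuron markers had a median of 0.0425 (5 of 9 probes positive on both arrays, range -0.302 to 0.22). Eye disc and photoreceptor markers had a median of -0.112 (4 of 9 negative on both, 1 positive on both, range -0.23 to 0.181). That 1 positive eye probe also counts among the neuron markers. The 9 eye probes came from 7 genes, as did the 9 neuron probes, and the 14 muscle probes from 10. Probes of the same gene are not independent. For comparison, 26.1% of all probes were positive on each array and 23.1% were negative on each. With array 2 turned, the eye median lay on the side opposite to Gbeta76C, Galphaq and the probe annotated as rdgA. It lay on the same side as Ggamma30A. At an adjusted p under 0.05 limma called 0 of these marker probes (0% of all probes). At an unadjusted p under 0.05 it found 9 of the 14 muscle probes, all positive, and 10 of the 14 midgut probes, 9 of them negative, against 6.69% of all probes. It found 1 of the 9 neuron probes, on the negative side, and 0 of the 9 eye probes. Taken as already running by genotype, the medians were 0.0298 for muscle, -0.077 for midgut, 0.04 for neurons and 0.061 for the eye. The arrays of Gbeta76C, Ggamma30A, Galphaq and the probe annotated as rdgA disagree in sign under that reading. The side of the eye markers therefore cannot be compared with theirs. The part of tissue content in the values of the phototransduction genes was not tested. SF2, the fly gene for dASF/SF2, was at -0.031 on array 1 and -0.128 on array 2 (mean -0.0795, 95% interval -0.325 to 0.166, adjusted p = 0.999 by limma). Whether its probe detects the transgene is not given in the sources used here.

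Position on the array was also examined, because probe numbers run through 24 blocks. The block that holds the probe annotated as rdgA, and that of trp, had a median of -0.097 on array 1 and 0.101 on array 2. The rdgB block had 0.087 and -0.111. With every block centred on its own median, a step chosen after seeing the data, the probe annotated as rdgA had a mean of 0.347, Gbeta76C 0.329, Galphaq 0.213 and Ggamma30A -0.22, close to the values above. Block medians were -0.037 and 0.038 for this Galphaq probe and -0.087 and 0.082 for Ggamma30A. Like those of the rdgA block, they nearly cancel over both arrays. These means could therefore hardly move, and they say little about position. Values of single arrays shifted more, and 5 probes then lay on the positive side of both arrays in place of 4. The array 2 value of rdgB became 0.117, that of trp -0.0785 and that of inaD 0.0005. The order of rdgB, trp and inaD on array 2 thus changed with this step.

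The nearest other gene in the plane of both arrays was found for each probe, by the straight-line distance between centred values. For Gbeta76C it was PlexB, at a distance of 0.0117, and for the probe annotated as rdgA it was kni, at 0.0203. Each of these had 9 probes of other genes within 0.05. Galphaq lay nearest to CG31441, with 92 probes within 0.05, and Ggamma30A to Spase12, with 31. The rdgA probes annotated as CG12660 and CG15352 had 204 and 335 such neighbours, vex and Hyccin being the closest. Likeness here rests on 2 values a probe.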

How the data were processed

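PolyA RNA of larvae from both crosses was compared on 2 two-colour arrays with swapped dyes, per the labels. The authors deposited 1 value per probe and array, a log ratio treated here as a score because its log base, numerator, background correction, normalization and filter were not stated in the material at hand. Blank cells (3996 on array 1, 1450 on array 2) and 7 cells with the code -10000 were treated as missing; 0 value columns were left unused. No depth or intensity was available, and the number of arrays limits the precision.

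Of 15744 probes, 13147 carried 1 symbol in the platform annotation; 12519 were named through gene identifiers of the RefSeq table (assembly Release 6 plus ISO1 MT), 36 by current symbol, 552 by a unique synonym, and 40 kept their symbol. No coordinates were used. Unnamed features at the same 40 places of all 24 blocks of 656 probes (960) were left out. Array 2 was multiplied by -1, each array was centred on its median, and limma 3.58.1 in R 4.3.3 (lmFit, eBayes, two-sided, Benjamini-Hochberg over 10912 probes) was run after it had been tested on simulated data.

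Members and lists were chosen with earlier results of these data known. By rule, all members were named, and names could also come from the listed pathway genes and relatives, SF2, and the nearest gene to each member probe. Tissue markers were to be given by counts, median and range only. The eye markers named in the last paragraph fall outside that rule. Symbols of 3 listed genes were updated to Cds, Trpgamma and inaF-D. Alternatives changed the reading, centring, scaling, position correction, variance model, level and probes in the fit.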

Additional observations from a re-analysis of the deposited data

How the results depend on the processing

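Over the alternatives run with a test, adjusted p by limma stayed between 0.504 and 0.998 for Gbeta76C, 0.587 and 0.998 for Ggamma30A, 0.612 and 0.998 for Galphaq, and 0.359 and 0.998 for the probe annotated as rdgA. Taken as already running by genotype, the values put 2 rdgA probes on the other side, at -0.163 (annotated as rdgA) and -0.0825 (CG12660), the median of the 6 probes at -0.0283 and 0 of them on the positive side of both arrays. The reported median of 0.143 became 0.188 when probes of a gene were averaged. It was 0.14 to 0.156 with 1 array left out, a value with no test. Without moderation of the variance limma's fit called 19 probes, all 19 equal on both arrays and none of the phototransduction genes; every other setting called 0. The count at an unadjusted p under 0.05, 730 as reported, ran from 533 to 942. Centring by block, chosen after seeing the data, and the running median over probe order put 5 probes on the positive side of both arrays in place of 4. No paired analysis was possible because both arrays belong to 1 group of ratios. No filter on dim probes could be tried, since no intensities were in the table.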

Other observations

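Eye genes outside the pathway were partly seen on array 2 alone, where a value has no dye-swapped partner. Turned and centred, the photoreceptor membrane gene chp (chaoptin) stood at -0.513, the homeobox gene ro at -0.289, the homeobox gene Pph13 at -0.071 and gl, whose product gives the GMR enhancer its activity, at 0.069. The eys gene, for the secreted protein that opens the space between photoreceptor membranes, had 3 probes on both arrays, with means of -0.019, -0.135 and -0.209. The first gave -0.1 and 0.062 and the second 0.038 and -0.308, so their arrays lay on opposite sides. The third gave -0.178 and -0.239. The other eye markers on both arrays went both ways. The means of oc and elav were positive, at 0.181 and 0.141. The elav probe also counts among the neuron markers. Those of sev, so, lz and eya were negative, at -0.23, -0.12, -0.112 and -0.043. Over the 9 eye marker probes on both arrays, means thus ran from -0.23 to 0.181.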
